A study of Rattus norvegicus with 6 samples.

Results

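Messenger RNA of mitotic spindle and kinetochore genes was followed in rat cardiac fibroblasts in which the microRNA miR-142-3p was targeted. The genes were a list of 50 symbols of the mitotic machinery, matched by symbol to the deposited expression table of 30560 genes. The table held 49 of the 50, and 47 of them were among the 12024 genes with enough expression to test, set at 1 FPKM or more on average across the 6 libraries. FPKM is the number of sequenced fragments scaled to transcript length and to the library total, so levels of different genes can be set side by side. Foxm1 and Cenpa lay below that minimum, and Ndc80 was not analysed here.

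The cells were primary fibroblasts from ventricles of newborn SD (Sprague-Dawley) rats of 1 to 2 days, enriched because they attach to the dish before cardiomyocytes do. They were kept without serum overnight and transfected, by means of Lipofectamine RNAiMAX, with 50 nM of an antagomiR against miR-142-3p or of the control that the labels call NC. AntagomiRs are modified oligonucleotides complementary to a mature microRNA, which they bind and block. Each group had 3 libraries of polyadenylated RNA, and nothing in the labels says whether these came from separate animals or cell isolations, and the p-values therefore reflect no more than the spread among these libraries, which may be technical. All 6 libraries share the primary isolation method and the starvation step, and polyA libraries do not measure the mature microRNA, so its silencing was not checked. Each library held between 19472409 and 24622667 fragments, as recovered from the FPKM values, at which 3 fragments on a transcript of 1 kb are worth between 0.122 and 0.154 FPKM, a floor for counting error only.

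Mitosis separates copied chromosomes into daughter cells. Cyclin-dependent kinase 1 and its cyclins start it, condensins compact the chromosomes, and kinetochores, protein assemblies built on the centromeres, attach each chromosome to spindle microtubules. A checkpoint holds the anaphase-promoting complex back until all kinetochores are attached, after which the sister chromatids separate and the central spindle directs cytokinesis. Transcripts of this machinery are made mostly in the G2 and M phases, and their levels are low in resting cells. The MuvB complexes, as the DREAM repressor in resting cells and together with B-MYB and FOXM1 in dividing ones, act on many of their promoters through an element called CHR, for cell cycle genes homology region, often close to CCAAT boxes bound by NF-Y.

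The targeted microRNA is shown first, from RefSeq on the build GRCr8, where it lies on the + strand at chr10:73055155-73055177. Its 23 bases are given with the seed, bases 2 to 8, in capitals.
rno-miR-142-3p: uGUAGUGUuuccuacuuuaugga

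RefSeq promoter windows on GRCr8, running from 250 bases before to 50 bases after the transcription start, were matched to 43 of the 50 genes by symbol and gave 44 windows, Kif2c having a pair. Letters of the CHR element, TTTGAA on either strand, stood in 29 of these 44 windows, or 65.9%. The share was 18.3% of all 33469 promoter windows in the table and 11.4% of the 9562 windows of genes tested here. A CCAAT box, CCAAT on either strand, stood in 68.2% of the mitotic windows, 37.5% of all windows and 37.1% of those of tested genes. Both motifs together stood in 52.3%, 7.41% and 4.62%. E2F-type sites, searched on both strands as TTTCCCGC, TTTGGCGC, TTTCGCGC and TTTGCCGC, stood in 1 of the 44 windows, that of Cdk1, in 2.14% of all windows and in 4.25% of those of tested genes. These are letter matches and not evidence of binding. Printed here 5′ to 3′ are the 250 bases before the start of 5 genes, with CHR and CCAAT letters of either strand in capitals (a reverse match reads TTCAAA or ATTGG). Mki67, Top2a and Cdca8 are risen genes with 4 CCAAT boxes and a CHR element, and they do not stand for all risen genes. Ncaph, Mybl2, Aurka, Melk, Bub1, Kif2c and Kif18b also rose, and their windows held neither motif. Ccnb2 is shown because it was among the least changed genes, and Anln because it was the gene that fell.
Mki67, chr1:199952594-199952843, - strand: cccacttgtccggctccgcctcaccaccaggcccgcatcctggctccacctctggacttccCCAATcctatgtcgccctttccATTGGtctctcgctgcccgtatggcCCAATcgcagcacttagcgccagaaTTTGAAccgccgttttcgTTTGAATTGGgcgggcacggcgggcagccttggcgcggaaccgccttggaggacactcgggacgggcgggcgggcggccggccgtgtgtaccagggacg
Top2a, chr10:84473094-84473343, - strand: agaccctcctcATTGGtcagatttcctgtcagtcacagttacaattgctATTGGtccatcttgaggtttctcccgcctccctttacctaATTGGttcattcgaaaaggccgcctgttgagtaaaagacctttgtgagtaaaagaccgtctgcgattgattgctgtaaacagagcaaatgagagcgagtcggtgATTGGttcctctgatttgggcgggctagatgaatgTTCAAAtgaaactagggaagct
Cdca8, chr5:142483200-142483449, - strand: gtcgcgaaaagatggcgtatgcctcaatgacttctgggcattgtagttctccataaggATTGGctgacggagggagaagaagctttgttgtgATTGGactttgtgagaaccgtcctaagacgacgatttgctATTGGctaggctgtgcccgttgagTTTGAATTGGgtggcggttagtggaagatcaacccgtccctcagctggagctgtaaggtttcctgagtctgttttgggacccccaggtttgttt
Ccnb2, chr8:79981659-79981908, - strand: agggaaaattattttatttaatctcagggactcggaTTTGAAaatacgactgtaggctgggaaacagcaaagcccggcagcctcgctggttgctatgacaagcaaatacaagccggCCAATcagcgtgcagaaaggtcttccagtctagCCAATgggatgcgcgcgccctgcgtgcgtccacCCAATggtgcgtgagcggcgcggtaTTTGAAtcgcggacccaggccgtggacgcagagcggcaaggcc
Anln, chr8:29197514-29197763, - strand: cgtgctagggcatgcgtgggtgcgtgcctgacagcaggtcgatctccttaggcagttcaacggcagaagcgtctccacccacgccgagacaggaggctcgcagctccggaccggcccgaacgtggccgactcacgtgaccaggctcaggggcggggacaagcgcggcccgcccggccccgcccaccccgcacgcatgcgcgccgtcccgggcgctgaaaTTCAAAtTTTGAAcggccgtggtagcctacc

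The Mki67 stretch holds 2 CHR elements and 4 CCAAT boxes, that of Top2a 1 and 4, that of Cdca8 1 and 4, that of Ccnb2 2 and 3, and that of Anln 2 and none. In Mki67 and Cdca8 a CHR element runs straight into a reverse CCAAT box and shares 1 base with it. CHR letters were thus present in genes of every outcome. They stood in 14 of 24 windows of genes that rose, or 58.3%, and in 12 of 17 windows of genes tested but not called, or 70.6%. The risen genes Ccna2, Aurkb, Incenp, Tpx2, Racgap1 and Ube2c had no window and are missing from the first share. CHR and CCAAT letters together stood in 54.2% and 52.9% of these windows.

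NC replicate 3 stood apart from the other NC libraries in its leukocyte transcripts. The summed level of 24 leukocyte markers was 158, 232 and 804 FPKM in NC replicates 1 to 3 and 1182, 1070 and 1124 FPKM in antagomiR replicates 1 to 3. Of these markers 19 were highest in NC replicate 3 among NC. With the antagomiR 9 of 18 tested rose, beside 17.5% of all tested genes. Without NC replicate 3 every tested marker rose (limma adjusted p from 8e-07 to 0.00643), beside 26.5% of all tested genes. Yet Cd68, C1qa, C1qb, C1qc, Mrc1 and Cx3cr1 were higher in NC replicate 3 than in any antagomiR library. For the other 12 tested markers every antagomiR library lay above every NC library. Lyz2 alone made up 390 FPKM of the sum in NC replicate 3 and 484 to 566 FPKM of those with the antagomiR. Cd3e, Ms4a1 and S100a9 were listed at 0 in all libraries, and Cd163, Cd79a and S100a8 stayed under 1 FPKM. Fibroblast markers, the defining genes of the labelled cell type, were present throughout, at a summed 13570 to 14310 FPKM for 11 genes, and 6 of the 11 rose and 2 fell. Pdgfra rose 3.22-fold, Dcn 2.72-fold, Lum 2.4-fold and Postn 1.85-fold, while Thy1 and Col1a2 fell to 0.712 and 0.806 times their NC mean. Of the other markers all 4 tested smooth muscle and pericyte genes fell, with sums of 205 to 226 FPKM in NC and 106 to 112 FPKM with the antagomiR, and 2 of 3 tested epicardial genes fell. Cardiomyocyte markers had sums of 430 to 476 FPKM over the NC libraries, against 352 to 416 FPKM over the antagomiR libraries. The fallen one of 9 tested, Tnnt2, made up most of the sum, its group mean going from 339 to 254 FPKM. Actc1, Myh7 and Myl2, the 3 that rose, had ratios of 1.3, 1.37 and 1.4. The log2 fold change was above 0 for 6 of the 9 and below 0 for 3, so the lower sum does not stand for the other markers. Endothelial markers summed to 2.40 to 2.72 FPKM in NC and 3.54 to 3.79 FPKM with the antagomiR. Tek, the tested one, rose by 0.32 (limma adjusted p = 0.0417), and Emcn was listed at 0. Most of each sum was Tek, at 1.569 to 2.015 FPKM in NC and 2.455 to 2.645 FPKM with the antagomiR. Pecam1, Cdh5, Kdr, Tie1 and Vwf stayed under 1 FPKM in all libraries, so the sums do not stand for these genes. In bulk RNA fewer cells of a type and less RNA per cell cannot be told apart, and neither can a change in fibroblasts and one in another cell type of the culture.

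The mitotic genes followed another order among the NC libraries than the leukocyte markers. Their summed level was 204, 194 and 182 FPKM in NC replicates 1 to 3 and 258, 255 and 257 FPKM in antagomiR replicates 1 to 3. NC replicate 3, with the most leukocyte RNA of the NC group, thus had the lowest mitotic sum of the 6 libraries. Gene by gene it was the lowest of the NC libraries for 28 of the 47 tested genes, the middle one for 8 and the highest for 11. It reached into or above the antagomiR range for 5 of them, Bub3, Cenpk, Spc24, Kif20a and Anln. NC replicate 1 was the lowest for 11 and the highest for 23, and NC replicate 2 the lowest for 8 and the highest for 13. The part of these cell type markers in the results below was not tested.

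**Figure D1:**
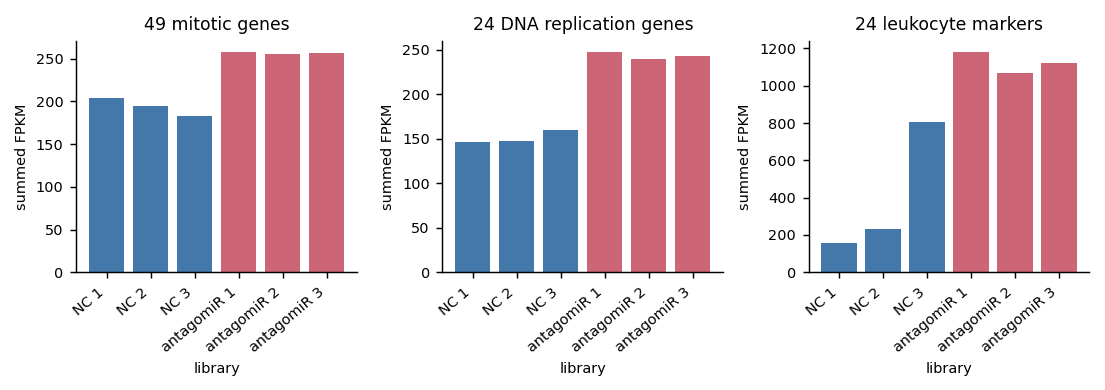
Summed FPKM (vertical axis, from 0) in each of the 6 libraries (horizontal axis) for 49 mitotic genes, 24 DNA replication genes and 24 leukocyte markers, with NC in blue and antagomiR in red and 1 bar per library. The mitotic sums are 182 to 204 FPKM in NC and 255 to 258 FPKM with the antagomiR, while the leukocyte sum of NC replicate 3, 804 FPKM, lies apart from the 158 and 232 FPKM of the other NC libraries.

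Setting antagomiR against NC addresses how the levels of these transcripts differed between the 2 transfected groups. Most of them were higher with the antagomiR, by modest amounts. Of the 47 tested genes 29 rose, 1 fell and 17 were not called by limma on log2(FPKM + 1) with Benjamini-Hochberg adjusted p under 0.05 over all 12024 genes. Among all tested genes 26.7% were called, 17.5% up and 9.21% down, against 61.7% up and 2.13% down among the mitotic genes. The same shares of all tested genes stand beside the counts given below for each role, which held 3 to 7 tested genes. The rises ran from 1.24-fold for Cdk1 to 2.72-fold for Mki67 as ratios of mean FPKM, with a median of 1.55-fold, and Mki67 and Aurkb alone passed 2-fold. The median log2 fold change of the 47 genes was 0.38, where that of all tested genes was 0.06. For 37 of the 47, or 78.7%, every antagomiR library lay above every NC library, which held for 29.2% of all tested genes. Every antagomiR library lay below every NC library for 1 gene, Anln, and for 15.4% of all tested genes. The other 9 had overlapping ranges.

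The number of genes called depended on the scaling and on single libraries. After quantile normalization the median of all tested genes moved from 0.06 to -0.05 and that of the mitotic genes from 0.38 to 0.23, so that their distance went from 0.32 to 0.28, and 15 of the 47 rose, beside 11.8% of all tested genes. Those 15 were the 14 genes listed below and Birc5. After median-ratio scaling 23 of the 47 rose, beside 13.1% of all tested genes. Over all called genes 65.6% were risen ones, a share that quantile normalization lowered to 43.1% and median-ratio scaling to 51.4%. Without NC replicate 3 the count was 30, beside 26.5% of all tested genes, with 27 of the 29 called again, Kif18b and Nusap1 lost, and Bub3, Spc25 and Cdc20 gained. Leaving out NC replicate 1 or 2 gave 23 and 19, and leaving out antagomiR replicate 1, 2 or 3 gave 14, 15 and 16. These fits have fewer libraries, and in them 10.1% to 15.2% of all tested genes rose. In each of the 16 or 17 alternatives that tested them, 14 genes were called up, namely Mki67, Top2a, Ncapd2, Ncaph, Ccna2, Ccnb1, Mybl2, Plk1, Aurkb, Incenp, Mad2l1, Kif2c, Ube2c and Pttg1.

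**Figure D2:**
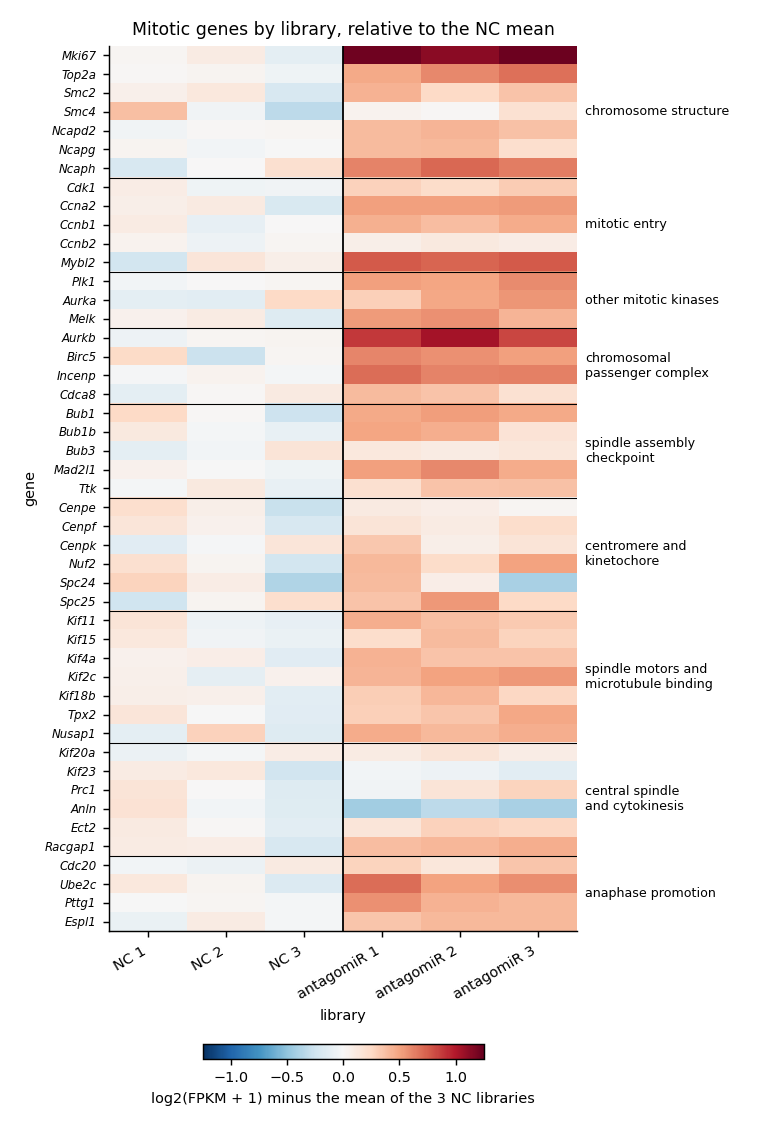
Heat map of log2(FPKM + 1) minus the mean of the 3 NC libraries for the 47 tested mitotic genes (rows, by role) in the 6 libraries (columns), red for higher and blue for lower. The antagomiR columns are red for most genes, Mki67 and Aurkb the most, and Anln and, more faintly, Kif23 are blue in all 3 antagomiR libraries.

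**Figure D3:**
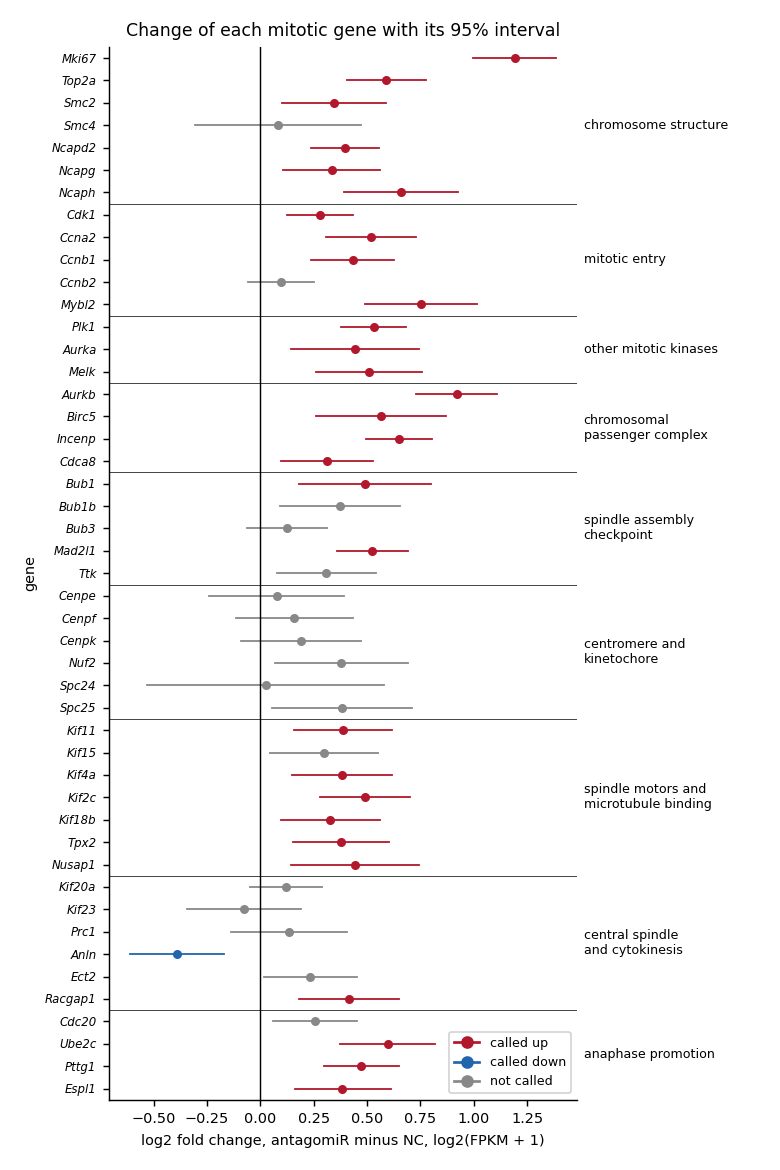
Log2 fold change, antagomiR minus NC on log2(FPKM + 1), of the 47 tested mitotic genes (rows, by role), with the 95% interval from limma as a line. The 29 risen genes are red, Anln is blue and the 17 genes not called are grey, among them all 6 centromere and kinetochore genes.

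Genes of chromosome structure held the largest change. Mki67 (ENSRNOG00000028137, chr1:190496319-190522762 in mRatBN7.2) encodes Ki-67, the proliferation antigen that coats mitotic chromosomes. NC replicates 1 to 3 held 2.97, 3.16 and 2.56 FPKM of it, and antagomiR replicates 1 to 3 held 8.04, 7.51 and 8.1 FPKM. All antagomiR values lay far above all NC values, and the log2 fold change came to 1.19, standard error (SE) 0.082 (limma adjusted p = 0.000138). Top2a, the topoisomerase that untangles sister DNA, went from 4.35, 4.46 and 4.13 to 6.39, 7.07 and 7.58 FPKM, 1.63-fold (log2 fold change 0.59, SE 0.078, limma adjusted p = 0.00197). Of the condensin genes Ncapd2 had 3.14, 3.3 and 3.34 FPKM in the NC libraries and 4.59, 4.71 and 4.49 FPKM in the antagomiR libraries (log2 fold change 0.40, SE 0.067, limma adjusted p = 0.00546). Ncaph, the condensin subunit that closes the ring, rose 1.84-fold, Ncapg 1.51-fold and the ATPase gene Smc2 1.31-fold. Smc4, the other condensin ATPase gene, was not called, with 19.7, 14.5 and 11.7 FPKM in the NC libraries and 15.5, 15.2 and 17.2 FPKM in the antagomiR libraries. Its log2 fold change of 0.08 turned below 0 after quantile normalization and without NC replicate 3, the latter at -0.081. In all 6 of 7 genes of this role rose, and Smc2 and Ncapg lost the call on leaving out any single library other than NC replicate 3 (limma adjusted p from 0.0549 to 0.153 in these fits).

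Of the 5 tested mitotic entry genes 4 rose, and cyclin B2 was not called. Mybl2, which encodes the transcription factor B-MYB, had 1.68, 2.48 and 2.29 FPKM in the NC libraries and 4.32, 4.17 and 4.32 FPKM in the antagomiR libraries, the largest change of this role (log2 fold change 0.75, SE 0.11, limma adjusted p = 0.00302). Ccna2, cyclin A2, stood at 6.18, 6.38 and 5 FPKM and 8.77, 8.71 and 8.85 FPKM (log2 fold change 0.52, SE 0.09, limma adjusted p = 0.00592). The antagomiR values of Ccna2 lay within a narrow band above all NC values. Ccnb1, cyclin B1, stood at 3.05, 2.51 and 2.8 FPKM in the NC libraries and 4.14, 3.95 and 4.23 FPKM in the antagomiR libraries (log2 fold change 0.43, SE 0.082, limma adjusted p = 0.00861). Ccnb2, cyclin B2, had 5.38, 4.92 and 5.29 FPKM in the NC libraries and 5.52, 5.74 and 5.6 FPKM in the antagomiR libraries. Its groups did not overlap, yet the ratio was 1.08 and it was not called (95% interval of the log2 fold change -0.06 to 0.25, limma adjusted p = 0.322), and after quantile normalization its log2 fold change was -0.051. Cdk1, the kinase these cyclins activate, rose 1.24-fold, from 10.4, 9.37 and 9.43 to 12.2, 11.6 and 12.4 FPKM. Its call was lost without NC replicate 2, antagomiR replicate 1 or antagomiR replicate 3 (limma adjusted p = 0.0736, 0.0736 and 0.0882). The call was also lost after quantile normalization (limma adjusted p = 0.105) and when the replicate number was added to the fit as a block.

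The transcription factor gene Foxm1 was listed near 0 in every library, between 0 and 0.0725 FPKM from 0 to 7 fragments, so no fold change is given. The values of Foxm1 were 1, 3 and 0 fragments in NC replicates 1 to 3 and 2, 7 and 4 fragments in antagomiR replicates 1 to 3.

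All 3 of the other mitotic kinase genes rose. Plk1, Polo-like kinase 1, which acts from entry to cytokinesis, had 4.33, 4.46 and 4.56 FPKM in the NC libraries and 6.77, 6.67 and 7.2 FPKM in the antagomiR libraries (log2 fold change 0.53, SE 0.064, limma adjusted p = 0.00129). The spread of Plk1 within each group was small beside the gap between the groups. Melk, a kinase of proliferating cells, went from 1.19, 1.26 and 0.894 to 2.05, 2.15 and 1.83 FPKM, 1.8-fold (log2 fold change 0.51, SE 0.11, limma adjusted p = 0.012). Aurka, the Aurora kinase of spindle poles, had 2.51, 2.5 and 3.53 FPKM in the NC libraries and 3.7, 4.34 and 4.59 FPKM in the antagomiR libraries (log2 fold change 0.44, SE 0.13, limma adjusted p = 0.0402). NC replicate 3 was the highest NC library for Aurka and lay close below antagomiR replicate 1. Without NC replicate 3 the log2 fold change of Aurka was 0.57, and its call was lost when any other single library was left out (limma adjusted p from 0.059 to 0.14). Melk lost its call without antagomiR replicate 1 or 2 (limma adjusted p = 0.0523 and 0.0553).

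The chromosomal passenger complex, which corrects faulty attachments at centromeres and later works at the central spindle, rose in all 4 of its genes. Aurkb (ENSRNOG00000005659, chr10:53745142-53750837 in mRatBN7.2), its kinase subunit Aurora B, stood at 2.61, 2.83 and 2.86 FPKM in the NC libraries and 5.94, 6.73 and 5.73 FPKM in the antagomiR libraries, 2.22-fold (log2 fold change 0.92, SE 0.081, limma adjusted p = 0.000352). Incenp, the scaffold subunit that binds the kinase, stood at 3.62, 3.82 and 3.61 FPKM and 6.59, 6.19 and 6.24 FPKM (log2 fold change 0.65, SE 0.065, limma adjusted p = 0.000623). For both genes the 3 NC values lay close together and far below the antagomiR values. Birc5, which encodes survivin, had 4.93, 3.15 and 4.11 FPKM in the NC libraries and 6.66, 6.46 and 6.14 FPKM in the antagomiR libraries (log2 fold change 0.57, SE 0.13, limma adjusted p = 0.018), with NC replicate 2 the lowest of the NC libraries. Cdca8, which encodes borealin, rose the least, 1.29-fold (limma adjusted p = 0.0443). Voom on the recovered fragments, which models counts, called the other 3 but not Cdca8 (adjusted p = 0.0536). The call of Birc5 was lost on leaving out any single antagomiR library (adjusted p from 0.0548 to 0.0696) and that of Cdca8 on leaving out any single library other than NC replicate 3 (adjusted p from 0.0552 to 0.15).

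**Figure D4:**
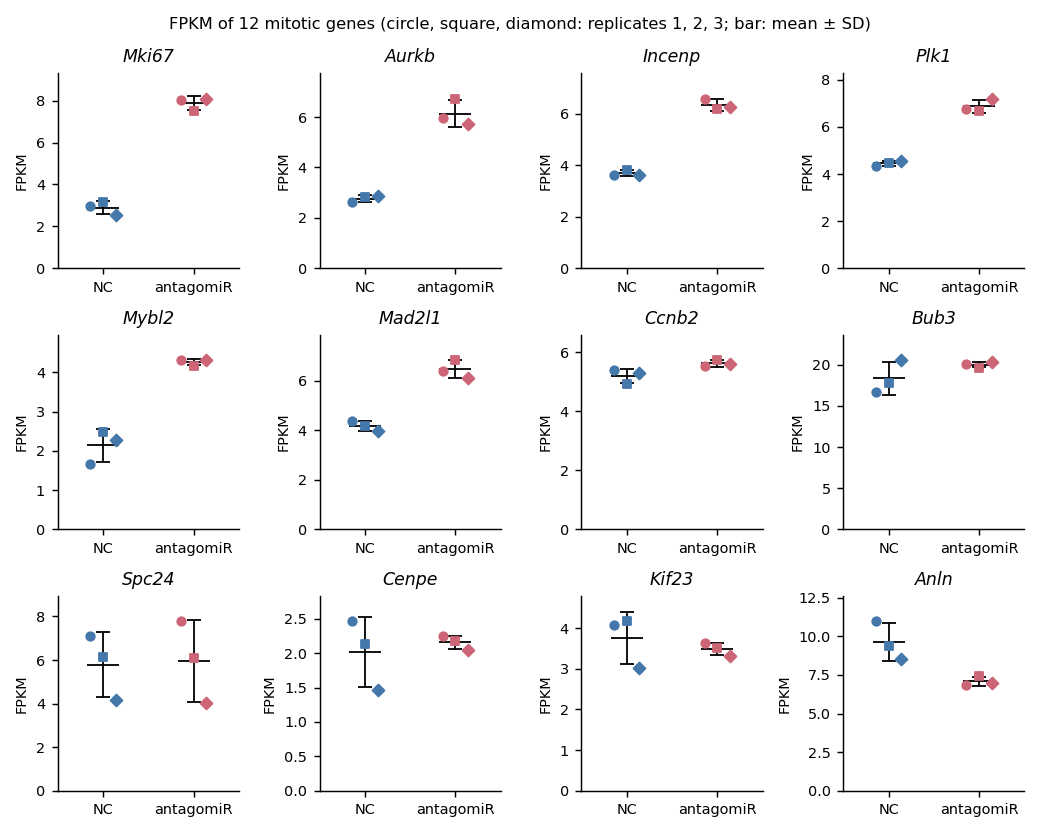
FPKM (vertical axis, from 0) of 12 mitotic genes in the 3 NC libraries (blue) and the 3 antagomiR libraries (red), with the replicates as circle, square and diamond and the mean ± SD as black bars. Mki67, Aurkb, Incenp, Plk1, Mybl2 and Mad2l1 have groups that lie apart, Bub3, Spc24, Cenpe and Kif23 have groups that overlap, and Anln is lower with the antagomiR.

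In the spindle assembly checkpoint 2 of 5 genes rose, or 40%, beside 17.5% of all tested genes. Mad2l1, which encodes the inhibitor of Cdc20 that carries the checkpoint signal, had 4.38, 4.16 and 3.99 FPKM in the NC libraries and 6.41, 6.84 and 6.12 FPKM in the antagomiR libraries (log2 fold change 0.53, SE 0.071, limma adjusted p = 0.00217). Bub1, the checkpoint kinase at kinetochores, stood at 2.5, 1.97 and 1.47 FPKM and 3.09, 3.24 and 3.09 FPKM (log2 fold change 0.49, SE 0.13, limma adjusted p = 0.0322). The NC values of Bub1 were spread, from 1.47 FPKM in replicate 3 to 2.5 FPKM in replicate 1, whereas its antagomiR values were nearly equal. Its call was lost on leaving out NC replicate 2 or any single antagomiR library (limma adjusted p from 0.0884 to 0.105). Bub1b, which encodes BubR1 of the checkpoint complex, had 1.55, 1.31 and 1.19 FPKM in the NC libraries and 2.29, 2.21 and 1.65 FPKM in the antagomiR libraries, groups that did not overlap, and just missed the threshold (log2 fold change 0.37, SE 0.12, limma adjusted p = 0.0562). It passed by voom, by limma without a trend and without antagomiR replicate 3 (adjusted p = 0.0286, 0.0411 and 0.0449). Ttk, the kinase Mps1 that starts the signal, had a ratio of 1.39 (limma adjusted p = 0.0571) and also passed by voom (adjusted p = 0.041). Bub3, the most abundant gene of this role, had 16.7, 17.8 and 20.6 FPKM in the NC libraries and 20.1, 19.6 and 20.3 FPKM in the antagomiR libraries, and only NC replicate 3 reached the antagomiR range. It was not called with all libraries (limma adjusted p = 0.302) but was without NC replicate 3, at a log2 fold change of 0.20 (adjusted p = 0.0174).

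None of the 6 tested centromere and kinetochore genes was called by limma, beside 17.5% up and 9.21% down among all tested genes. None was called by voom, while 2 had an unadjusted limma p under 0.05. The 2 were Spc25 and Nuf2, subunits of the NDC80 complex that grips microtubules. Nuf2 had 2.61, 2.22 and 1.7 FPKM in the NC libraries and 3.19, 2.69 and 3.47 FPKM in the antagomiR libraries (95% interval of the log2 fold change 0.07 to 0.69, limma adjusted p = 0.0734). Spc25 had 1.5, 2.03 and 2.43 FPKM in the NC libraries and 2.79, 3.31 and 2.52 FPKM in the antagomiR libraries (95% interval 0.05 to 0.71, limma adjusted p = 0.0858). In both genes every antagomiR library lay above every NC library, by a small margin. Nuf2 was called without NC replicate 1 and Spc25 without NC replicate 3 (adjusted p = 0.0429 and 0.0198). Spc24, a subunit of the same complex, had 7.1, 6.12 and 4.16 FPKM in the NC libraries and 7.78, 6.08 and 4.03 FPKM in the antagomiR libraries. Its values spanned nearly the same range in both groups, the interval was wide (-0.53 to 0.58), and the log2 fold change of 0.02 turned below 0 under either scaling and without NC replicate 3, antagomiR replicate 1 or antagomiR replicate 2.

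Of the other kinetochore genes Cenpk, of the inner kinetochore, had 0.98, 1.17 and 1.43 FPKM in the NC libraries and 1.75, 1.3 and 1.44 FPKM in the antagomiR libraries, which overlapped (95% interval -0.09 to 0.47, limma adjusted p = 0.289). Cenpe, a kinesin of the outer kinetochore, had 2.46, 2.14 and 1.46 FPKM in the NC libraries and 2.24, 2.17 and 2.05 FPKM in the antagomiR libraries, and its log2 fold change of 0.08 turned to -0.064 without NC replicate 3 and -0.065 after quantile normalization. Cenpf, a large corona protein, had a ratio of 1.2 and overlapping groups. The 95% intervals of all 6 genes include 0.38, the median log2 fold change over the 47 mitotic genes, so these values do not exclude a rise of that size, nor do they show one. Cenpa, the histone variant that marks centromeres, lay under the minimum, with 0.876, 0.743 and 0.472 FPKM in the NC libraries and 0.956, 1.16 and 1.11 FPKM in the antagomiR libraries. With a minimum of 0.1 FPKM its log2 fold change was 0.30 with an SE of 0.11 (limma adjusted p = 0.103).

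Of 7 genes of spindle motors and microtubule-binding proteins 6 rose, with ratios from 1.35 for Tpx2 to 1.66 for Kif2c. Kif2c, the kinesin that takes microtubules apart at centromeres, had 1.7, 1.4 and 1.68 FPKM in the NC libraries and 2.49, 2.66 and 2.76 FPKM in the antagomiR libraries (log2 fold change 0.49, SE 0.089, limma adjusted p = 0.00728). Kif11, the motor Eg5 that pushes spindle poles apart, stood at 2.49, 2 and 1.91 FPKM and 3.27, 3.06 and 2.92 FPKM (log2 fold change 0.39, SE 0.097, limma adjusted p = 0.0251). Tpx2, which activates Aurora A on the spindle, stood at 6.51, 5.72 and 5.13 FPKM in the NC libraries and 7.32, 7.57 and 8.48 FPKM in the antagomiR libraries (log2 fold change 0.38, SE 0.095, limma adjusted p = 0.0261). In all 3 genes each antagomiR library exceeded each NC library. The chromokinesin gene Kif4a rose 1.55-fold, the microtubule bundler Nusap1 1.47-fold and Kif18b, a kinesin of astral microtubules, 1.43-fold. Kif15, a motor that can stand in for Kif11, had an NC mean under 1 FPKM and a ratio of 1.49, and was called by voom (adjusted p = 0.0274) but not by limma (adjusted p = 0.0815). Of the 6 risen genes Kif2c kept its call with each library left out. Kif18b lost it whichever library was left out (adjusted p from 0.0587 to 0.155), and Nusap1 for any single library other than NC replicate 2 (0.0509 to 0.123). Kif11, Kif4a and Tpx2 lost it without NC replicate 2 or a single antagomiR library, whichever that was (0.052 to 0.107).

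Of 6 central spindle and cytokinesis genes 1 rose and 1 fell, 16.7% each, beside 17.5% up and 9.21% down among all tested genes. Anln (ENSRNOG00000014343, chr8:20858228-20921538 in mRatBN7.2) encodes anillin, the scaffold of the contractile ring that binds actin, myosin and septins. It had 11, 9.36 and 8.55 FPKM in the NC libraries and 6.82, 7.42 and 6.99 FPKM in the antagomiR libraries, 0.735 times the NC mean (log2 fold change -0.39, SE 0.093, limma adjusted p = 0.0207). Every antagomiR library lay below every NC library, and NC replicate 3 was the NC library nearest to them. The direction held in all 17 alternatives, and the call was lost without NC replicate 2 or without antagomiR replicate 1, 2 or 3 (limma adjusted p = 0.06, 0.079, 0.0533 and 0.077). Racgap1, of the centralspindlin complex, had 3.48, 3.44 and 2.64 FPKM in the NC libraries and 4.43, 4.55 and 4.69 FPKM in the antagomiR libraries and rose (log2 fold change 0.42, SE 0.099, limma adjusted p = 0.0209), with the call lost on leaving out any single antagomiR library (adjusted p from 0.064 to 0.0837). Its partner in that complex, the kinesin gene Kif23, had 4.08, 4.17 and 3.01 FPKM in the NC libraries and 3.62, 3.51 and 3.31 FPKM in the antagomiR libraries. All antagomiR values of Kif23 lay within the NC range (95% interval -0.34 to 0.19, limma adjusted p = 0.666). Ect2, an exchange factor that acts at the cell equator, had 2.87, 2.62 and 2.28 FPKM in the NC libraries and 2.99, 3.37 and 3.29 FPKM in the antagomiR libraries, groups apart but without a call (log2 fold change 0.23, SE 0.092, limma adjusted p = 0.105). Prc1, the bundler of midzone microtubules, and the kinesin gene Kif20a had ratios of 1.11 and 1.1 and overlapping groups, and the log2 fold change of Kif20a was -0.027 after quantile normalization.

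For anaphase, 3 of 4 genes rose. Ube2c, the ubiquitin-conjugating enzyme of the anaphase-promoting complex, had 10.1, 9.35 and 8.01 FPKM in the NC libraries and 15.5, 13.4 and 14.1 FPKM in the antagomiR libraries (log2 fold change 0.60, SE 0.094, limma adjusted p = 0.00409). Pttg1, which encodes securin, the inhibitor of separase, stood at 3.31, 3.42 and 3.27 FPKM and 5.45, 4.88 and 4.74 FPKM (log2 fold change 0.47, SE 0.075, limma adjusted p = 0.00409). Both genes had NC groups well below the antagomiR groups. Espl1, the gene of separase itself, was low, with 0.781, 1.02 and 0.846 FPKM in the NC libraries and 1.39, 1.49 and 1.49 FPKM in the antagomiR libraries (log2 fold change 0.38, SE 0.095, limma adjusted p = 0.0242). Its call was lost on leaving out NC replicate 1 or any single antagomiR library (adjusted p from 0.0629 to 0.0953). Cdc20, the activator of the anaphase-promoting complex, had 6.24, 6.05 and 7.02 FPKM in the NC libraries and 8.02, 7.17 and 8.41 FPKM in the antagomiR libraries, a ratio of 1.22. Its groups did not overlap, with NC replicate 3 the NC library nearest to the antagomiR group, and it was called without that library (adjusted p = 0.0168) but not with it (limma adjusted p = 0.0626).

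Other genes of mitosis, from lists that hold none of the genes above, give context. Of 104 tested genes in 6 lists, 32 rose and 2 fell, 30.8% and 1.92%, beside 17.5% and 9.21% of all tested genes, and their median log2 fold change was 0.18. The count of risen genes was 16 after quantile normalization, 20 with NC replicate 2 left out, and 18, 18 and 15 with antagomiR replicate 1, 2 or 3 left out. In the same fits, in that order, 11.8%, 11.4%, 10.9%, 10.8% and 10.1% of all tested genes rose. The count was 23 after median-ratio scaling, 30 without NC replicate 1 and 36 without NC replicate 3. Beside these stood 13.1%, 15.2% and 26.5% of all tested genes. Among other kinetochore and centromere genes 7 of 22 rose, with a median of 0.23. They included Pmf1 and Nsl1 of the MIS12 complex, at log2 fold changes of 0.56 and 0.52, and Cenpl of the inner kinetochore at 0.49 (limma adjusted p = 0.000751, 0.0137 and 0.00561). Nsl1 lost its call without antagomiR replicate 3 and after quantile normalization (adjusted p = 0.0651 and 0.0547). Pmf1 had 6.53, 6.78 and 6.46 FPKM in the NC libraries and 10.2, 9.81 and 10.5 FPKM in the antagomiR libraries. Kinetochore genes outside the 6 described above were called, and whether the 2 sets differ was not tested.

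Among other spindle and cytokinesis genes 8 of 24 rose and 1 fell, 33.3% and 4.17%, with a median of 0.11. Of all tested genes 17.5% rose and 9.21% fell. The microtubule-binding gene Tacc3 rose by 0.41 and Arhgap11a by 0.39 (limma adjusted p = 0.0083 and 0.00915), and Arhgap11a lost its call after quantile normalization (adjusted p = 0.0506). The one that fell was Cit, citron kinase, which acts with anillin at the contractile ring and midbody. Cit had 7.88, 7.24 and 5.91 FPKM in the NC libraries and 4.64, 4.8 and 4.45 FPKM in the antagomiR libraries (log2 fold change -0.50, SE 0.10, limma adjusted p = 0.0112). As for Anln, its antagomiR values all lay below its NC values, and NC replicate 3 was the lowest of the NC libraries. The call of Cit was lost without antagomiR replicate 3 (adjusted p = 0.0508). In the list of entry and exit kinases and phosphatases 5 of 14 rose and 1 fell. Ccnf, cyclin F of a ubiquitin ligase, went from 0.801, 0.742 and 0.859 to 1.96, 2.16 and 2.2 FPKM (log2 fold change 0.79, limma adjusted p = 0.000955). Pkmyt1, an inhibitory kinase of Cdk1, rose by 0.63 and Cdc25a, a phosphatase that activates cyclin-dependent kinases, by 0.42 (limma adjusted p = 0.00227 and 0.00531). Cdkn3, a phosphatase that acts on them, fell from 10.3, 10.8 and 12.5 FPKM in NC to 8.52, 7.15 and 7.49 FPKM with the antagomiR (log2 fold change -0.48, SE 0.094, limma adjusted p = 0.00944).

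In the list of checkpoint and anaphase-promoting complex genes 1 of 15 rose, or 6.67%, beside 17.5% of all tested genes. This was Mad1l1, the kinetochore receptor of Mad2, which rose by 0.48 (limma adjusted p = 0.00898). The list median was 0.04, near that of all tested genes, and Trip13, which recycles Mad2, and Ube2s, a ubiquitin-conjugating enzyme that works after Ube2c, had 0.29 and -0.15 without a call (limma adjusted p = 0.0795 and 0.0955). Ube2s was called down after median-ratio scaling, at -0.22 (adjusted p = 0.036). Of 15 other condensin and cohesin genes 7 rose, among them Cdca5, the cohesin protector sororin, by 0.64, the cohesin gene Stag2 by 0.29 and the condensin II gene Ncaph2 by 0.33 (limma adjusted p = 0.00609, 0.00656 and 0.00938). Of 14 DREAM and MuvB genes, which include E2F and pocket protein genes, 4 rose. Rbl1, which encodes the pocket protein p107, had 2.6, 2.19 and 2.23 FPKM in the NC libraries and 4.29, 4.39 and 4.31 FPKM in the antagomiR libraries (log2 fold change 0.68, limma adjusted p = 0.00114). E2f2, an activating E2F, rose by 0.82 and Lin37, a MuvB subunit, by 0.35 (limma adjusted p = 0.00334 and 0.0118). Leaving out antagomiR replicate 1 or 2 ended the call of Lin37 (adjusted p = 0.0533 and 0.0523), as did quantile normalization (adjusted p = 0.06).

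Genes of DNA replication, which takes place earlier in the cell cycle than mitosis, are set beside these for context. Of 22 tested 19 rose, 86.4%, beside 17.5% of all tested genes. Their median log2 fold change was 0.59. For 20 of the 22, or 90.9%, every antagomiR library lay above every NC library, beside 29.2% of all tested genes. Their summed level was 147, 147 and 160 FPKM in NC replicates 1 to 3 and 248, 240 and 243 FPKM in antagomiR replicates 1 to 3, 1.61 times the NC mean, where the mitotic sum was 1.33 times. NC replicate 3 was thus the highest NC library for the replication sum and the lowest for the mitotic sum. Mcm5, of the replicative helicase, rose by 1.29, Rrm2, of ribonucleotide reductase, by 1.01 and Uhrf1, which maintains DNA methylation at replication forks, by 0.82 (limma adjusted p = 0.000107, 0.000123 and 0.000497). The difference between the replication and mitotic lists was not tested.

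**Figure D5:**
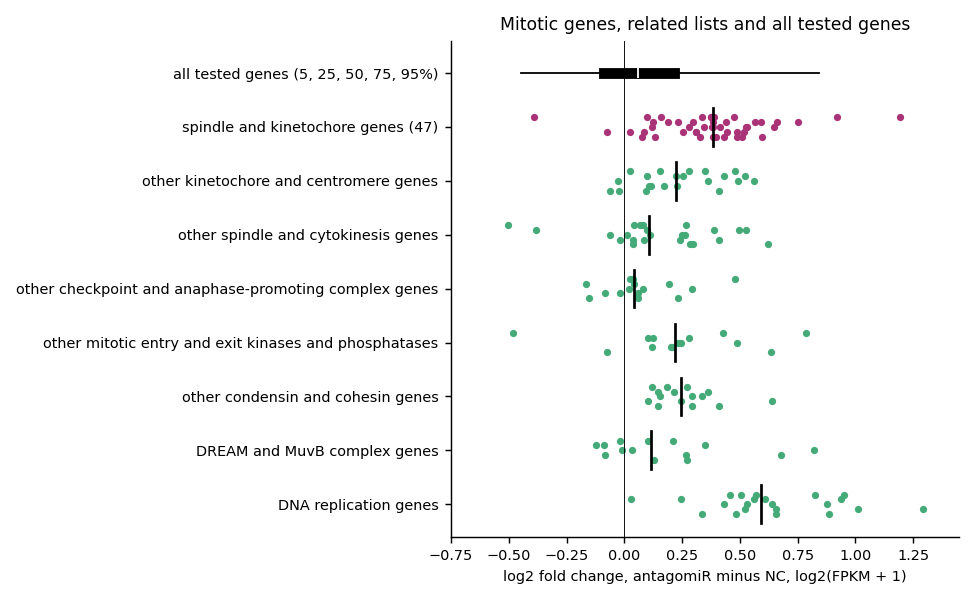
Log2 fold change, antagomiR minus NC on log2(FPKM + 1) (horizontal axis), of the 47 tested mitotic genes, of 6 lists of other mitosis genes and of DNA replication genes, with 1 point per gene and the list median as a vertical line. The top bar runs from percentile 25 to 75 of all 12024 tested genes and its thin line from percentile 5 to 95. The medians are 0.38 for the mitotic genes, 0.04 to 0.25 for the other mitosis lists, 0.59 for replication and 0.06 for all tested genes.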

How the data were processed

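Polyadenylated RNA of 3 NC and 3 antagomiR cultures was sequenced as paired reads, per the labels' protocols. The authors deposited 1 table of FPKM for 30560 genes with Ensembl identifiers, symbols, coordinates and 1 column per library, and 0 columns were left unassigned. The tools FastQC, cutadapt, HISAT2, HTSeq and edgeR and the build mRatBN7.2 are named, per the submitters' processing notes. Their versions, order, annotation release and strand setting are not given in the sources used here. Whether reads of overlapping genes, antisense partners or close copies were counted to either gene or dropped is therefore not known.

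Fragments were recovered from the FPKM, in which 1 fragment has a fixed worth given the gene length and library total. The tested mitotic genes had 25 to 1851 fragments per library, and those called at least 50. Groups were compared two-sided by limma 3.58.1 under R 4.3.3 (lmFit, eBayes with a trend) on log2(FPKM + 1). Genes averaging 1 FPKM or more across the 6 libraries were kept, with Benjamini-Hochberg adjusted p under 0.05 over all 12024 genes. Fold changes on that scale are antagomiR minus NC, which understates changes of low genes. The script was tested on simulated data. Alternatives were pseudocounts of 0.1 and 0.01, minimum means of 0, 0.1 and 5 FPKM, median-ratio and quantile scaling, a replicate block, eBayes without a trend or robust, limma voom on the recovered fragments, and leaving out each library.

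The 50 genes, the other lists and the markers were chosen with earlier results of these data known, so their counts and medians are descriptions without a test of the list. Of the 50, values in every library are given for up to 3 genes of each of 9 roles with the smallest limma p, for genes called down and for tested genes with a log2 fold change below 0. Of each other list up to 3 genes with the smallest p and those called down are named. Other genes with values in every library (Cdk1, Cdc20, Bub3, Ccnb2, Smc4, Spc24, Cenpe, Cenpa and Foxm1) were named after their values were seen. Of 2 rows with the symbol Cdc45, that with the higher mean was used. Promoter and microRNA sequences are RefSeq's on GRCr8.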

Additional observations from a re-analysis of the deposited data

How the results depend on the processing

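Of the pairs of a tested mitotic gene and an alternative, 637 gave the same call and direction, 113 lost a call, 11 gained one and 11 changed direction. The count of risen mitotic genes, 29, was 12 with a minimum of 5 FPKM, where 20 of the genes were tested, 15 after quantile normalization, 18 with the replicate block and 14 to 30 when 1 library was left out. Of all tested genes 18.6%, 11.8% and 13.1% rose in the first 3 of these settings, and 10.1% to 26.5% when 1 library was left out. The count of fallen mitotic genes, 1, was 0 to 1 when 1 library was left out. Risen genes of the other mitosis lists, 32, became 13, 16 and 21 under the same 3 settings and 15 to 36 without 1 library. Their fallen genes, 2, became 4 after median-ratio scaling and 1 to 4 without 1 library. Risen replication genes, 19, became 12 with a minimum of 5 FPKM, which tests fewer of them, and 17 to 21 without 1 library. Over all genes 1216 to 3185 rose and 667 to 1677 fell without 1 library, and 1869 fell after quantile normalization. The median log2 fold change of the mitotic genes, 0.38, was 0.53 and 0.55 with pseudocounts of 0.1 and 0.01, 0.55 by voom and 0.23 after quantile normalization. Genes not called that changed direction were Smc4 (-0.01 after quantile normalization, -0.0805 to 0.269 without 1 library, the lowest without NC replicate 3), Ccnb2 (-0.0512 after quantile normalization), Cenpe (-0.0649 after quantile normalization, -0.0637 to 0.183 without 1 library, the lowest without NC replicate 3) and Kif20a (-0.0265 after quantile normalization). Spc24 was at -0.0337 after median-ratio scaling, -0.117 after quantile normalization and -0.162 to 0.24 without 1 library, below 0 without NC replicate 3 or antagomiR replicate 1 or 2. Where no reason is given, the cause was not tested.

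Equal replicate numbers are not said in the labels to mark a shared preparation, and deviations from the group means correlated at -0.16, -0.06 and -0.04 for equal numbers and at -0.06 to 0.13 for unequal ones. The replicate block gave 1571 risen and 809 fallen genes, 18 risen mitotic genes and 1 fallen. The standard errors were largest for Spc24 (0.236) and Smc4 (0.165), and Smc4 had 1088 to 1851 fragments per library. What set the size of the standard errors was not tested.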
